A study of Homo sapiens with 20 samples.

Results

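Closely spaced CTCF sites in LNCaP were chosen by position. A site was a genomic interval formed by overlapping CTCF peaks and covered by a peak in both LNCaP control siRNA libraries on chromosomes 1 to 22 and X. A member was a site with another such site within 2000 bp of its edge, and 2929 of 33377 sites (8.78%) met this rule. They lay in 1419 clusters, of which 1334 held 2 sites, 80 held 3, 4 held 4 and 1 held 5. The comparison set was the 8039 isolated sites (24.1%) whose nearest neighbour was over 50000 bp away.

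CTCF is a zinc finger protein that binds a directional DNA motif, blocks the cohesin complex as it extrudes chromatin loops and so anchors many loops and domain boundaries. Loop anchors far apart usually carry motifs that point towards each other. Sites that lie close together can act as one boundary element, and multiple CTCF sites in a row are known at the H19 imprinting control region and at the alternative promoters of the clustered protocadherins.

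LNCaP is an androgen-sensitive prostate cancer cell line and IMR90 is a lung fibroblast line. Cells had received a control siRNA or a CTCF siRNA, both pools, at 20 nM and were taken at 144 h, so all 20 libraries came from transfected cells and none from untreated ones. The 10 groups, with 2 libraries each, were CTCF, H3K4me3 and H3K27ac in LNCaP under either siRNA, and CTCF in IMR90 under either siRNA by the standard protocol and by a low-cell protocol. The study describes its siRNA replicates as biological ones, while the labels do not say which libraries came from one culture. H3K4me3 covered the promoters of the prostate or luminal genes KLK3, HOXB13, KRT8 and KRT18 in all 4 LNCaP libraries of that mark, but the fibroblast genes VIM and COL1A1 were covered in all 4 as well, THY1 in 3 and COL1A2 in 1. IMR90 had CTCF libraries only, and its identity could not be checked against a promoter mark.

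The sequences below show what 2 neighbouring sites look like, for pairs that kept or lost CTCF after siRNA. Each is 30 bp from hg19, read 5′ to 3′ on the strand of the motif, with the 14-base match to the CTCF core consensus motif in capitals. The PRDM11 pair was the strongest 2-site cluster by its weaker site, the pairs near CCN6 and GLI3 kept a peak at both sites after CTCF siRNA, and CNTNAP2 kept 1 of its 2 sites. The chromosome 2 pair had no peak in either LNCaP CTCF siRNA library or in the standard IMR90 control libraries. The pairs on chromosomes 13 and 21 carry near-identical sequence.
PRDM11 site 1 (chr11:45124829-45124858, minus strand): tatgtctaCCATCAGATGGCGCcaaaggac
PRDM11 site 2 (chr11:45127225-45127254, minus strand): tgttgtggCCACCAGGTGGCGGgccagggc
CCN6 site 1 (chr6:112364376-112364405, minus strand): cctccgggCCAGCAGAGGGCGCtcaacggg
CCN6 site 2 (chr6:112365038-112365067, minus strand): ccctgcggACGCTAGATGGCGGaatgggtt
GLI3 site 1 (chr7:41980526-41980555, plus strand): gctcttgaACACCAGGGGGCAGtgtgtgac
GLI3 site 2 (chr7:41982807-41982836, plus strand): cgcctgcaCCACGCGGTGGCAGcagcagca
CNTNAP2 site 1 (chr7:147959991-147960020, minus strand): gagtgttaCCACCAGGTGGTGCtgtccccc
CNTNAP2 site 2 (chr7:147962234-147962263, plus strand): catgggtgTCATTAGATGGCAGcaaagcag
Chromosome 2 site 1 (chr2:211898676-211898705, plus strand): aatatctaCCACCAGAGGGCAGagagtgaa
Chromosome 2 site 2 (chr2:211900449-211900478, minus strand): tttcacaaCCACCAGGAGGCAGtatagtgt
Chromosome 13 site 1 (chr13:19172916-19172945, minus strand): agctaccaCCGCCAGGTGGCTCcctgcagc
Chromosome 13 site 2 (chr13:19174176-19174205, plus strand): gattttggCCACTAGGTGGAGTatggctct
Chromosome 21 site 1 (chr21:15067851-15067880, minus strand): agctaccaCCGCCAGGTGGCTCccaccagc
Chromosome 21 site 2 (chr21:15069131-15069160, plus strand): gattttggCCACTAGGTGGAGTctggctct

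Both motifs of the PRDM11 pair and of the CCN6 pair lie on the minus strand, and both of the GLI3 pair on the plus strand. The other 4 pairs shown differ in strand between their sites. The chromosome 2 pair has its first motif on the plus and its second on the minus strand, the convergent order, while the CNTNAP2, chromosome 13 and chromosome 21 pairs have the divergent order. Over 41 bp around the motif, the first sites of the chromosome 13 and 21 pairs were identical at 36 bases and the second sites at 40. Multiply aligned reads had been discarded from the deposited lists, and how well reads could be assigned to 1 of these copies was not tested, so the peaks at both pairs are uncertain.

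The gap between the 2 sites of a pair ran from 32 to 1999 bp with a median of 1012 bp, and the summits were 357 to 3227 bp apart. Gaps were spread evenly over the allowed range, with 308 pairs at up to 500 bp, 347 at 500 to 1000 bp, 339 at 1000 to 1500 bp and 340 at 1500 to 2000 bp. Peaks that touch merge into one interval, so pairs closer than about the length of a peak were not resolved (median width of member sites 415 bp, of isolated sites 373 bp). At the limit itself, the last 2 members were a pair in introns of LINC01483 on chromosome 17, 1999 bp apart, with mean fold enrichments of 22.6 and 13.3. The nearest sites left out were 2 sites of PTH1R on chromosome 3, 2001 bp apart, with 15.7 and 7.37.

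Members made up 14.4% of the sites on chromosome 19 (Wilson 95% interval 12.5 to 16.5) and 4.93% on chromosome 18 (3.47 to 6.95), the extremes. Per megabase, chromosome 19 held 2.79 members and chromosome 13 held 0.269. All intervals given here cover counting error over sites and not the spread between libraries, and neighbouring sites share a locus.

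Member sites were stronger than isolated sites in the same control libraries that chose them, which is a description and was not tested. The median fold enrichment over local background was 12.4 in replicate 1 and 14.5 in replicate 2 for members, against 9.99 and 12.2 for isolated sites. Tags at the summit, worked back from fold enrichment and p-value, had medians of 35 and 40 at members and 27 and 32 at isolated sites. Local background was nearly the same at both, with medians of 1.60 and 1.59 tags in replicate 1 and 1.56 and 1.55 in replicate 2. The ratio of median strength, members over isolated sites, was 1.23.

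The 2 sites of a pair often differed in strength. The stronger site had a median fold enrichment of 18.5 and the weaker one 9.62. The stronger site exceeded its partner by a median of 1.69 times, by under 1.5 times in 533 pairs and by 3 times or more in 194, up to 11.1 times. Adjacent sites over 50000 bp apart differed by a median of 1.63 times, a ratio close to that of the pairs. These were all 15600 pairs of successive control sites with such a gap between them. They were not limited to isolated sites and can include members with a close neighbour on the other side. The site that was stronger in replicate 1 was also the stronger in replicate 2 in 1089 of 1334 pairs. As a description across pairs, which share libraries, Spearman's rho between left and right site was 0.09.

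**Figure D1:**
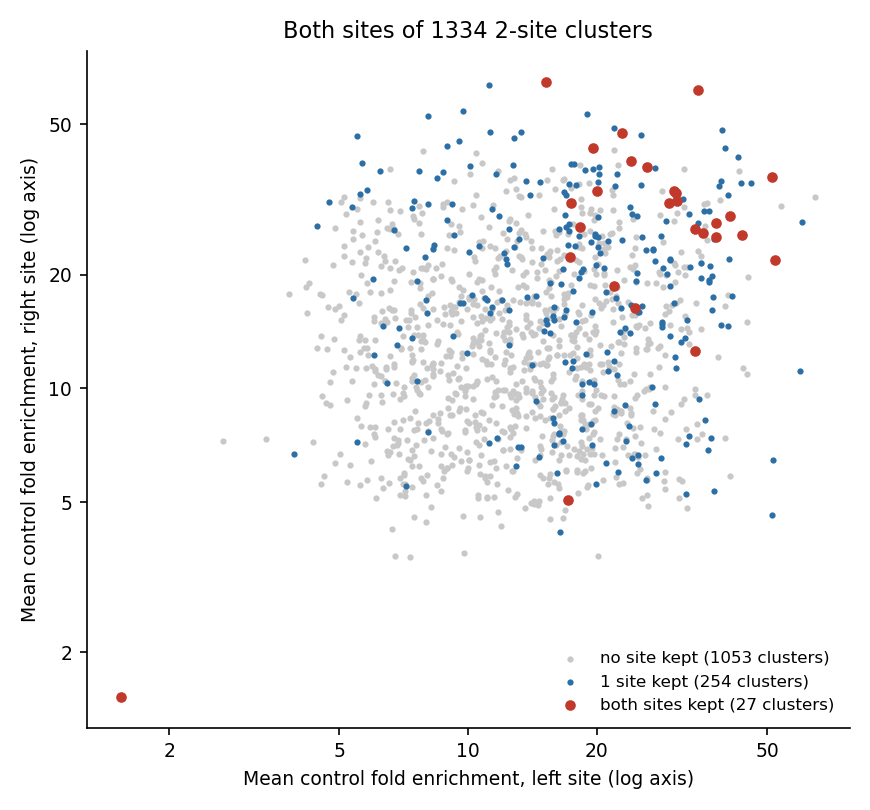
Mean control fold enrichment of the left site (horizontal, log axis) and the right site (vertical, log axis) of the 1334 2-site clusters, coloured by how many of their sites had a peak in both LNCaP CTCF siRNA libraries. Points fill a broad cloud, the 27 clusters with both sites kept lie mostly at its upper right, and 1 kept cluster on chromosome 6 stands apart at the lower left.

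After CTCF siRNA most member sites no longer had a peak, but more of them did than isolated sites. A peak was found at 375 members (12.8%) in CTCF siRNA replicate 1 and at 745 (25.4%) in replicate 2, beside 10.0% and 20.6% of all sites. For isolated sites the shares were 7.07% and 15.0%. In both libraries 11.7% of members and 6.48% of isolated sites had a peak, beside 9.26% of all sites. Such sites are called kept here. Where a site or group is given 2 tag counts or shares, replicate 1 comes first, and tag counts are not corrected for depth. The difference of 5.23 percentage points had a Newcombe 95% interval of 3.98 to 6.55. Both libraries showed the same direction, with differences of 5.74 and 10.4 points (mean 8.09 ± 3.33, SD, n = 2), and with 2 libraries the exact two-sided sign-flip permutation test cannot go below its value of p = 0.50. The summit of the siRNA peak lay inside the member in 374 of 375 cases in replicate 1 and in 745 of 745 in replicate 2, and 1 CTCF siRNA peak, in replicate 1, covered 2 members. The CTCF siRNA lists were short, with 3732 and 7736 peaks against 38018 and 46365 in control, and their lowest local background was 39.6% and 51.4% of the control mean, so a site without a peak there may still bind CTCF below what these lists could show.

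The difference was smaller at matched control strength. In the strongest of 8 bins of control fold enrichment, 37.9% of members and 34.0% of isolated sites were kept, and in the fourth bin 2.37% and 3.38%. Members had the higher kept share in 5 of the 8 bins, the weakest and the 4 strongest. When isolated sites were weighted to the strength of the members, the kept share of isolated sites became 10.2% and the difference 1.55 points (0.15 to 2.94). Weighting by tags in place of fold enrichment gave 1.14 points with an interval that includes 0 (−0.27 to 2.55). The difference also moved with single libraries: it was 3.18 points without control replicate 1 and 10.4 without CTCF siRNA replicate 1.

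**Figure D2:**
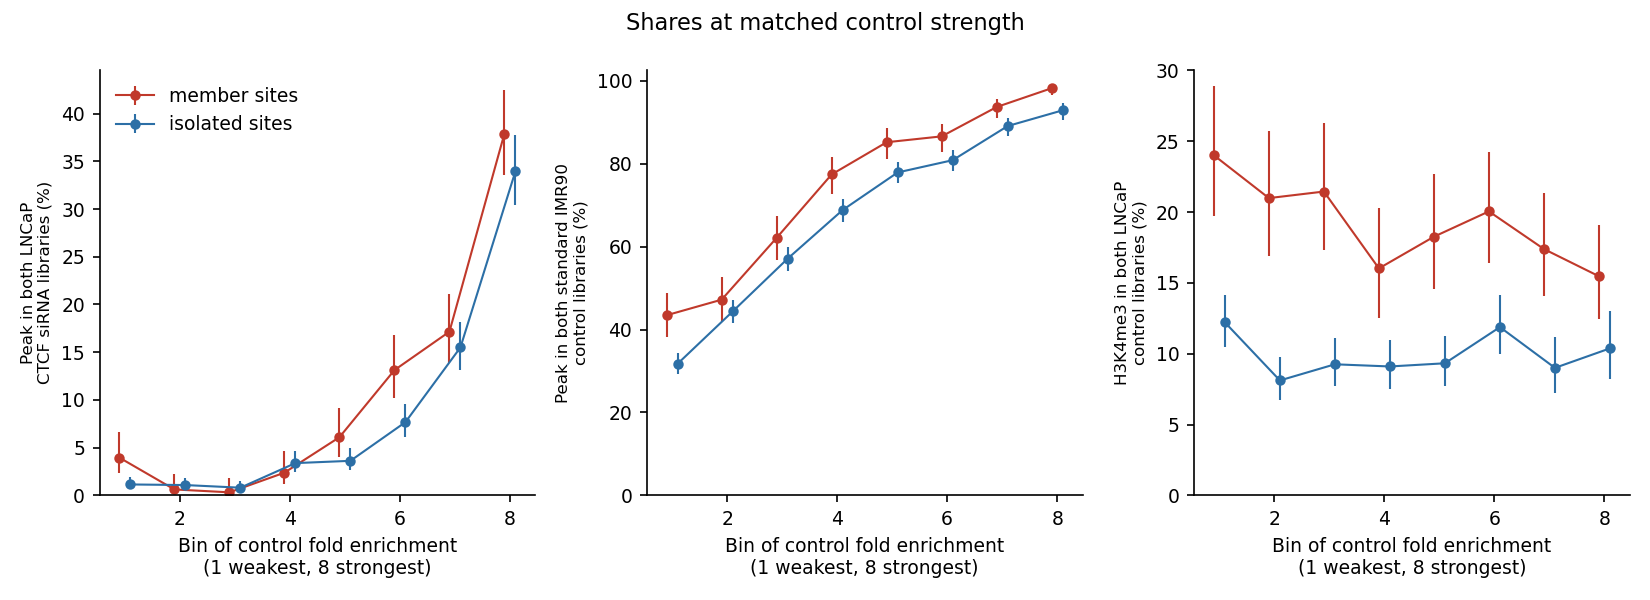
Share of member (red) and isolated sites (blue) in each of 8 bins of mean control fold enrichment, from the weakest to the strongest, with a peak in both LNCaP CTCF siRNA libraries, a peak in both standard IMR90 control libraries, or an H3K4me3 region in both LNCaP control libraries. Error bars are Wilson 95% intervals. Kept shares of members are above those of isolated sites in the weakest and the 4 strongest bins and below them in the other 3, while the IMR90 and H3K4me3 shares of members are above those of isolated sites in all 8.

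In the weakest bin, 13 of 329 members were kept (3.95%) against 14 of 1228 isolated sites (1.14%). Over all bins, 10 members had a local background over 10 times the lowest of a control library, and 8 of them were kept. They include the lone point in the plot of pairs, a pair on chromosome 6 (chr6:58777451-58779300) with 212 and 208 control tags at its first site and 276 and 253 at its second, over a background of 136 and 175 tags in replicate 1. In the weakest bin, 8 of 9 members with such a background had a peak in CTCF siRNA replicate 2, as had 4 of 7 isolated sites. Without high-background sites the kept difference before matching for strength was 5.03 points (3.79 to 6.34). The difference at matched strength was not recomputed without them.

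Where at least 1 site of a pair was kept, the other mostly was not. Of 1334 pairs, 1053 had no kept site, 254 had 1 and 27 had both. Both sites were kept in 9.61% of the 281 pairs with at least 1 kept site (6.69 to 13.6), and in 14.3% of the 98 such pairs whose sites differed by less than 1.5 times in strength. By CTCF siRNA replicate 2 alone, that is without CTCF siRNA replicate 1, the share was 19.4%. Of the 2343 pairs of adjacent sites over 50000 bp apart with at least 1 kept site, 4.65% kept both (3.87 to 5.58). By CTCF siRNA replicate 2 alone that share was 10.9%. Where 1 site was kept it was the stronger one in control in 216 of 254 pairs (85.0%, 80.1 to 88.9), and for adjacent sites over 50000 bp apart in 1846 of 2234 (82.6%, 81.0 to 84.1).

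Over all pairs, the share of members kept was higher where the partner was kept. By class of strength this was seen in the strongest class, not in the middle one, and in the weakest on few kept sites. Counting each pair from both sides, 17.5% of members with a kept partner and 10.8% of those without one were kept, a difference of 6.77 points (2.71 to 11.6). For adjacent sites over 50000 bp apart the same shares were 8.89% and 7.77%, a difference of 1.12 points (0.01 to 2.35). Among members in the strongest of 3 equal classes of control fold enrichment, 36.9% were kept with a kept partner and 24.8% without, a difference of 12.1 points (3.47 to 21.4). The far neighbours of that strength gave 0.56 points (−2.63 to 4.02). In the middle class 6 of 92 members with a kept partner (6.52%) and 57 of 806 without one (7.07%) were kept, and in the weakest class 3 of 94 and 7 of 787. The 3 include both sites of the chromosome 6 pair of high local background. Strength still varied within a class, from 17.9 to 65.0 in the strongest. In the single libraries the differences for strong members were 15.5 points (6.83 to 24.5) and 13.7 points (6.56 to 20.4). Pairs are counted from both sides, so the 2 entries of a pair are not independent and these intervals are too narrow.

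Member sites were bound in IMR90 more often than isolated sites. Standard IMR90 control libraries had a peak at 79.7% and 80.7% of members and at 68.2% and 70.0% of isolated sites. In both libraries it was 76.4% of members against 64.4%, beside 72.6% of all sites, a difference of 12.01 points (10.1 to 13.8). The low-cell control libraries had a peak at 61.4% and 58.8% of members and at 42.3% and 40.2% of isolated sites, and both together at 54.7% against 35.9%, beside 46.1% of all sites. Members were higher in 4 of 4 IMR90 control libraries, by a mean of 15.0 ± 4.50 points (SD, n = 4, exact two-sided sign-flip permutation p = 0.125, the smallest that 4 libraries allow). At matched control strength the difference in the standard libraries was 6.23 points (4.46 to 8.00), and without LNCaP control replicate 2 it was 7.15. No IMR90 control library had a peak at 14.1% of members and at 25.5% of isolated sites.

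The same order held in IMR90 after CTCF siRNA. Peaks were found at 57.7% and 54.9% of members and at 41.9% and 41.5% of isolated sites by the standard protocol, beside 52.3% and 50.4% of all sites. By the low-cell protocol they were found at 17.5% and 6.93% of members and at 9.18% and 3.35% of isolated sites, beside 13.6% and 5.30% of all sites. The CTCF groups not used to choose the sites were 5, that is LNCaP after siRNA and the 4 IMR90 groups. A peak in both libraries of all 5 was present at 4.71% of members and 1.84% of isolated sites, beside 3.39% of all sites. The difference was 2.87 points (2.09 to 3.74). Members kept in LNCaP had a peak in both standard IMR90 control libraries in 94.2% of cases, against 70.0% of members with no CTCF siRNA peak. The same shares of isolated sites were 92.5% and 59.3%.

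**Figure D3:**
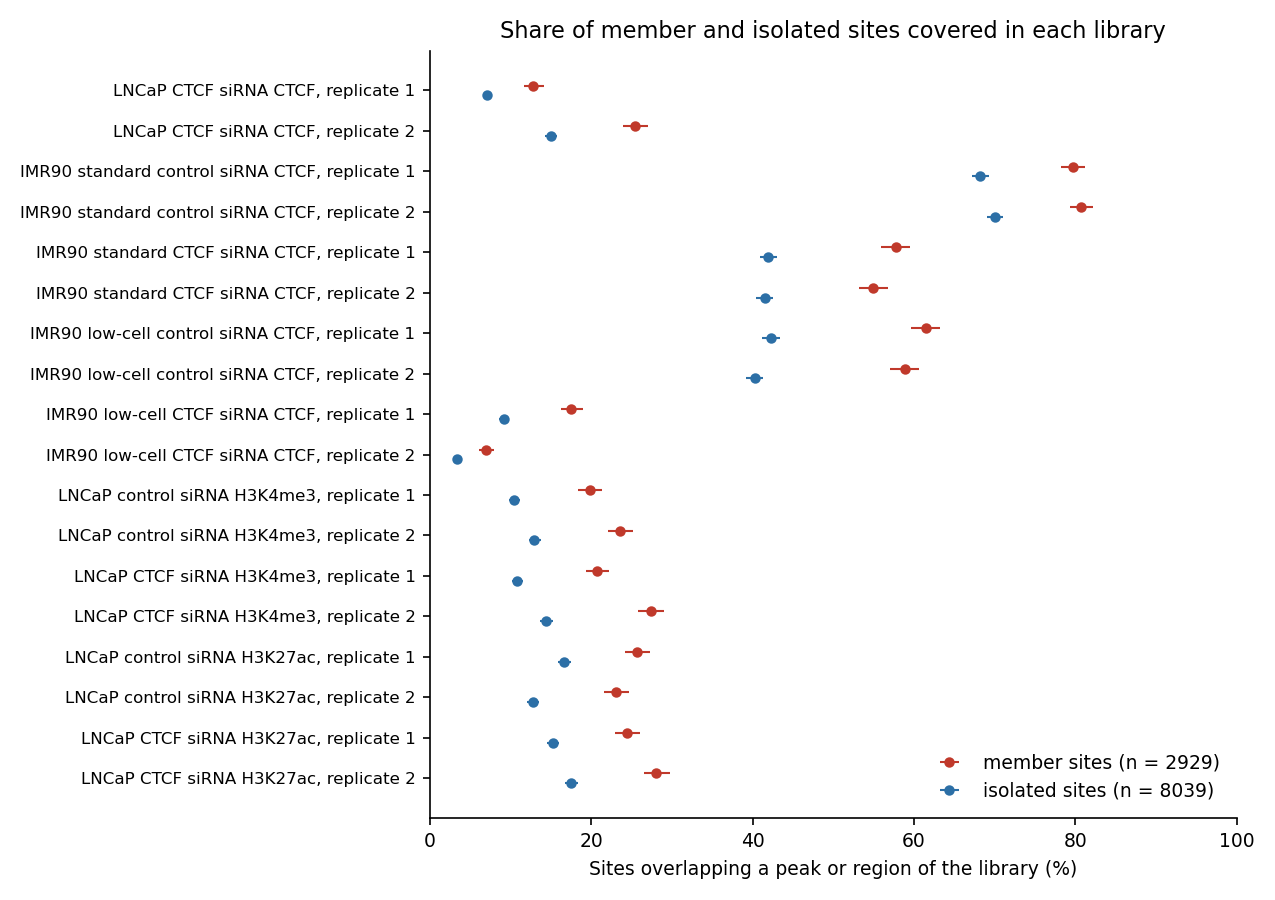
Share of member (red) and isolated sites (blue) that overlap a peak or region in each of the 18 libraries that did not choose the sites, on an axis of percent of sites. Points are shares with Wilson 95% intervals, and the member share lies to the right of the isolated share in every library, from 6.93% against 3.35% in the second low-cell CTCF siRNA library to 80.7% against 70.0% in the second standard IMR90 control library.

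Active histone marks covered member sites more often. H3K4me3, a mark of promoters, overlapped 19.8% and 23.6% of members in the 2 control libraries and 10.4% and 12.9% of isolated sites. In both libraries it overlapped 18.98% of members against 9.89%, beside 12.8% of all sites, a difference of 9.09 points (7.56 to 10.7). H3K27ac, which marks promoters and enhancers in use, overlapped 25.7% and 23.1% of members against 16.6% and 12.7%, and in both libraries 20.8% against 11.5%, beside 15.6% of all sites. That difference was 9.25 points (7.65 to 10.9). Members were higher in all 4 libraries of either mark, both siRNAs included, by 10.7 ± 1.55 points for H3K4me3 and by 9.80 ± 0.756 points for H3K27ac (SD, n = 4, exact two-sided sign-flip permutation p = 0.125 for both). Both marks together were found at 13.04% of members and 5.78% of isolated sites, beside 8.31% of all sites.

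Members lay nearer to promoters than isolated sites did. The summit of a member lay within 1000 bp of an annotated start site of a protein-coding or lncRNA gene in 20.3% of cases. The share was 10.1% of isolated sites and 14.4% of all sites. The median distance to a start site was 6486 bp for members against 18869 bp for isolated sites. With isolated sites weighted to the members' distance to a start site, H3K4me3 differed by 3.80 points (2.12 to 5.47) and H3K27ac by 5.27 points (3.52 to 7.02). Restricted to sites over 5000 bp from a start site, the differences were 3.16 and 3.29 points. The H3K4me3 difference was 15.5 points without control CTCF replicate 2. Shares also depended on spacing: H3K4me3 marked 28.2% of sites with a neighbour within 500 bp, 19.5% at 500 to 1000 bp, 15.5% at 1000 to 1500 bp and 13.3% at 1500 to 2000 bp.

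**Figure D4:**
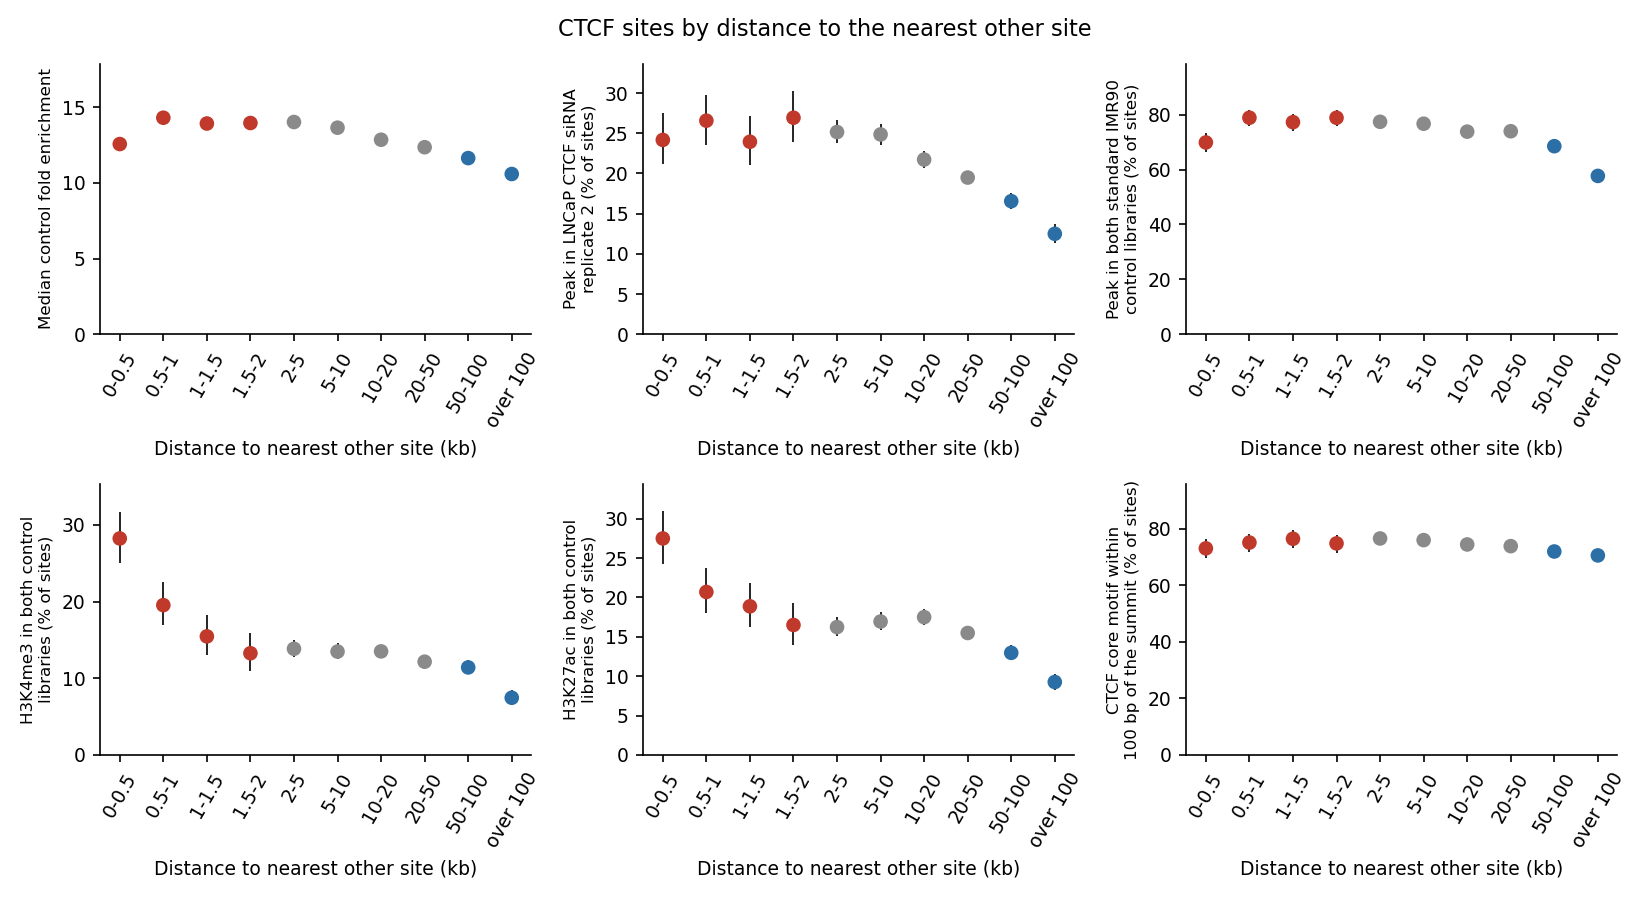
Control sites grouped by distance to the nearest other site (kb, horizontal), showing median control fold enrichment and the percent of sites with a peak in LNCaP CTCF siRNA replicate 2, a peak in both standard IMR90 control libraries, H3K4me3 or H3K27ac in both control libraries, and a CTCF core motif. Red points are members, grey points sites in between, blue points isolated sites, and error bars Wilson 95% intervals. H3K4me3 falls from 28.2% to 13.3% across the members, while median fold enrichment is 12.6 in the closest bin, 13.7 to 14.3 from there to 10 kb and lower beyond, and CTCF siRNA peaks are found at 23.9% to 26.9% of sites up to 10 kb and at fewer beyond.

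The distance plot sets members beside sites at intermediate spacing. Sites with a neighbour at 2000 to 5000 bp had a median fold enrichment of 14.03, a CTCF siRNA replicate 2 peak in 25.1% and a standard IMR90 control peak in both libraries in 77.4%, values within the range of the 4 member bins. The marks and promoter shares set the closest sites apart: 16.9% of sites at 2000 to 5000 bp lay within 1000 bp of a start site and 13.8% carried H3K4me3, against 28.9% and 28.2% at up to 500 bp. IMR90 binding was lower in the closest sites, at 69.9% within 500 bp and 78.9% at 500 to 1000 bp.

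Where a mark was present at a pair, it often covered both partners. H3K4me3 in both control libraries covered both sites of 170 pairs, 1 site of 158 and neither of 1006. H3K27ac covered both sites of 191, 1 of 157 and neither of 986. Of the pairs with at least 1 marked site, 51.8% had H3K4me3 at both and 54.9% had H3K27ac at both. For adjacent sites over 50000 bp apart these shares were 8.22% and 14.3%. In 86.0% to 87.6% of the pairs marked at both sites by H3K4me3 in a library, and 85.8% to 88.0% for H3K27ac, a single region spanned the pair. A start site lay between the 2 summits in 212 pairs (15.9%), and the gap of 131 of these (61.8%) carried H3K4me3 in both control libraries, against 171 (15.2%) of the other pairs. Both summits lay in introns of 1 gene in 557 pairs (41.8%) and in intergenic sequence in 448 (33.6%).

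Kept members carried less H3K27ac. It overlapped 13.7% of kept members and 22.7% of members without any CTCF siRNA peak, a difference of −8.97 points (−12.7 to −4.58), while H3K4me3 overlapped 20.1% and 18.96% (difference 1.16, −3.10 to 5.99). In the 2 strongest of the 8 bins of control fold enrichment the H3K27ac shares were 8.57% and 23.01% (difference −14.4, −19.9 to −8.59). For isolated sites in those bins they were 7.94% and 9.01% (difference −1.07, −4.44 to 2.79). The difference between the 2 kinds of site in this contrast was not tested.

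After CTCF siRNA the marks at members did not differ beyond the spread between replicates. H3K4me3 covered 20.7% and 27.3% of members, against 19.8% and 23.6% in control, a mean change of 2.34 points. H3K27ac covered 24.4% and 28.1%, against 25.7% and 23.1%, a mean change of 1.86 points. The exact two-sided permutation test gave p = 0.67 for both marks, and 2 libraries against 2 cannot go below 0.33. H3K4me3 was present in the control pair of libraries and absent from the CTCF siRNA pair at 17 members, and the reverse held at 36. The numbers were 39 and 66 for H3K27ac. At isolated sites they were 44 and 53 for H3K4me3 and 59 and 131 for H3K27ac. At the sites in between they were 106 and 228 for H3K4me3 and 245 and 493 for H3K27ac. More sites thus gained than lost a call in every class, of 2929 members, 8039 isolated sites and 22409 sites in between. The CTCF siRNA lists were also longer than control, with 41245 and 59921 H3K4me3 regions against 36638 and 48606. For H3K27ac they held 94629 and 99158 regions against 87147 and 70100. With lists shortened to the shortest, the change at members was 0.96 points for H3K4me3 and −0.29 for H3K27ac. The part of list length in the counts was not tested.

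A match to the CTCF core consensus motif with up to 2 mismatches lay within 100 bp of the summit at 74.9% of members and 71.4% of isolated sites, beside 74.0% of all sites. Windows of the same length 1000 bp from the summits and outside any control peak held one in 6.92% of cases at members and 3.85% at isolated sites. The difference of 3.47 points (1.59 to 5.30) fell to 0.47 (−1.36 to 2.30) at matched control strength. It was also 1.12 without control replicate 1 and 1.37 without control replicate 2, with intervals that include 0. A full match was found at 12.7% of members and 10.2% of isolated sites, beside 11.8% of all sites. It was found at 27.4% of kept members against 8.41% of members with no CTCF siRNA peak. The isolated sites of the same fates had 29.9% and 7.28%. Members were richer in G and C than isolated sites, with a median of 51.2% around the summit against 45.3%. Sites with a neighbour at 2000 to 5000 bp had the same median as members, 51.2%.

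The 2 motifs of a pair pointed the same way in most cases and seldom towards each other. Both sites had a motif in 772 pairs, 1 site in 466 and neither in 96. Of the 772, 436 had both motifs on the same strand (56.5%, 53.0 to 59.9), 212 were divergent (27.5%) and 124 convergent (16.1%, 13.6 to 18.8). Among 8362 adjacent sites over 50000 bp apart, 48.7% were on the same strand, 21.4% divergent and 29.9% convergent. Pairs had a higher share on the same strand by 7.76 points (4.08 to 11.4), and a lower convergent share, with a difference of −13.8 points (−16.5 to −10.9). By the gap between adjacent sites, the share on the same strand was 60.1% within 500 bp, 62.8% at 500 to 1000 bp and 55.1% at 1000 to 2000 bp. Sites beyond the limit were close to this, with 54.8% at 2000 to 5000 bp and 53.9% at 5000 to 10000 bp. The median distance between the motifs was 1479 bp.

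**Figure D5:**
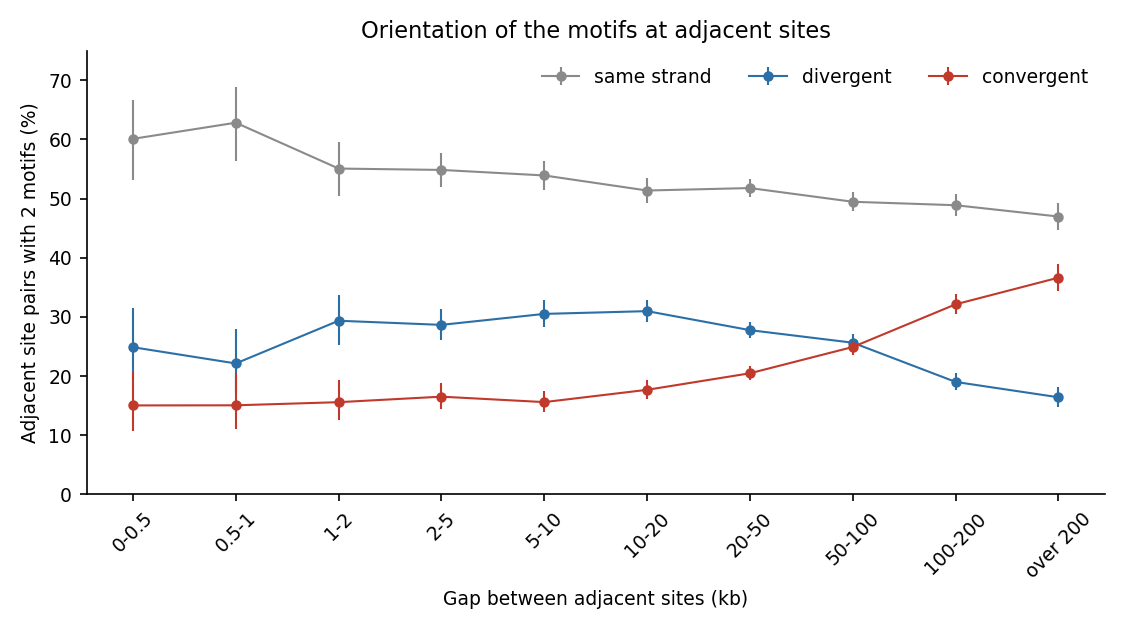
Percent of adjacent CTCF site pairs with 2 motifs whose motifs are on the same strand, divergent or convergent, by the gap between the sites (kb, horizontal), with Wilson 95% intervals. Convergent pairs are 15.0% at the closest spacing and 36.6% over 200 kb, and the share on the same strand falls from 60.1% to 47.0%.

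Orientation changed with distance. Convergent pairs stayed between 15.0% and 17.7% up to 20 kb and rose to 20.5% at 20 to 50 kb, 24.9% at 50 to 100 kb and 36.6% beyond 200 kb. Divergent pairs ran the other way, from 31.0% at 10 to 20 kb to 16.4% beyond 200 kb. Among the 22 pairs with 2 motifs that kept both sites, 13 were on the same strand (59.1%, 38.7 to 76.7), beside 54.4% of the 377 such pairs without any CTCF siRNA peak.

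Few pairs were copies of one sequence. The 41 bp around the 2 motifs of a pair were identical at a median of 41.5% of positions, the same as for adjacent sites over 50000 bp apart. They reached 80% or more in 14 pairs (1.81%), against 0.586% of the distant neighbours.

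The largest cluster, with 5 sites, lay in the lncRNA gene LINC00662 on chromosome 19 (chr19:28265269-28268972). All 5 sites had a motif on the plus strand, and 4 of them, the second to the fifth, were 80.5% to 87.8% identical to each other over 41 bp, while the first was 36.6% to 41.5% identical to the others. Control tags were 20, 16, 20, 21 and 16 in replicate 1 and 41, 37, 12, 27 and 25 in replicate 2. No site had a peak after CTCF siRNA in LNCaP, and 4 of the 5 had one in both standard IMR90 control libraries.

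Next came clusters of 4 sites. The BCL6 cluster (chr3:187456597-187460214) lay in introns of BCL6, which encodes a transcriptional repressor of germinal centre B cells. Its replicates disagreed: the second site had 77 and 19 control tags, the third 43 and 13. All 4 sites carried H3K4me3 and H3K27ac in every LNCaP library, and the fourth alone had a CTCF siRNA peak, in replicate 2 (13 tags). The cluster annotated to introns of H19 (chr11:2019615-2024444) lies at the imprinting control region, where CTCF binds the unmethylated maternal allele and shields IGF2 from shared enhancers. Its control tags were 34, 19, 44 and 26 in replicate 1 and 24, 32, 46 and 42 in replicate 2, and none of its sites had a peak after CTCF siRNA. H3K4me3 covered all 4 sites in both control libraries but none in CTCF siRNA replicate 1 and 3 in replicate 2. Its motif search matched at the first site only. The fourth cluster (chr6:29615581-29621579), near MOG, a myelin gene, had 1 kept site, the second, with 9 and 26 tags after CTCF siRNA against 54 and 71 in control.

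The strongest 2-site cluster lay in introns of PRDM11, with 92 and 110 control tags at the first site and 81 and 101 at the second. After CTCF siRNA the first had 14 and 59 tags and the second a peak in replicate 2 only, with 12. The next was an intergenic pair on chromosome 11 (chr11:2216101-2218830) whose nearest start site was that of TH, the rate-limiting enzyme of catecholamine synthesis. It had 87 and 90 control tags at the first site and 110 and 112 at the second, and 3 mismatches to the motif at each, and its second site was kept with 17 and 46 tags. The pair at RAB3IL1 (chr11:61664890-61666984), a RAB3A exchange factor, had a kept second site 52 bp from a start site, with 23 and 32 tags after siRNA. The TRG-AS1 pair (chr7:38407635-38409991) lay beside TRGV1 of the T cell receptor gamma locus and had CTCF siRNA peaks in replicate 2 only, of 13 and 29 tags.

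Of the 27 pairs kept at both sites, the strongest lay near FGFR4, a receptor tyrosine kinase (chr5:176538715-176541284). It had 98 and 143 control tags at the first site and 120 and 149 at the second, and 16 and 39 at the first site and 42 and 80 at the second after CTCF siRNA. The next, near NT5M, a mitochondrial nucleotidase (chr17:17258165-17259813), fell from 68 and 84 tags to 14 and 17 at its first site and from 141 and 164 to 13 and 37 at its second. The CCN6 pair (chr6:112364120-112365248) had 78 and 91 control tags at the first site against 12 and 36 after siRNA. The GLI3 pair (chr7:41980320-41983160), near the gene of this transcription factor of hedgehog signalling, had 67 and 71 against 19 and 39. All 8 of these sites had a peak in every IMR90 control library. Tags here and elsewhere are not corrected for depth. Scaled to the lowest local background of each library, members with a CTCF siRNA peak held a median of 58.9% and 60.2% of their control tags. Isolated sites with such a peak held 65.1% and 61.6%.

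A further 193 pairs had 1 kept site and no siRNA peak at the other. In the strongest, in CLVS1 on chromosome 8, the kept site had 77 and 100 control tags and its partner 71 and 88. Near CITED4, a transcriptional coactivator, the site kept (61 and 92 control tags) was not the one with more tags (88 and 119). In mean control fold enrichment the 2 were nearly equal, at 31.7 for the kept site and 31.8 for the other. In the pair at LINC02288 and LINC02289 there were 75 and 86 control tags at the first site and 66 and 67 at the second, and the second was kept. In CNTNAP2, which encodes a neurexin family protein, the first site had 77 and 84 control tags and 15 and 35 after siRNA, while the second went from 70 and 86 to no peak. The lost CNTNAP2 site had 28 and 10 tags in the IMR90 control libraries and no peak in IMR90 after CTCF siRNA, whereas the kept one had 37 and 31 there.

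Some pairs were seen in few libraries besides the LNCaP control. In 58 pairs neither site had a peak in the LNCaP CTCF siRNA or standard IMR90 control libraries, and in 61 neither had one in any IMR90 control library. The strongest of both sets lay beside IGHV3-48 of the immunoglobulin heavy chain locus (chr14:106993545-106995903), with 73 and 78 control tags at its first site, 55 and 76 at its second, and H3K27ac over both in all 4 LNCaP libraries. A pair in the lncRNA gene ENSG00000275232 on chromosome 12 was next in the first set and belongs to the other set too. It had 40 and 38 tags at the first site and 39 and 52 at the second. The chromosome 2 pair shown above lay 362331 and 364115 bp from the start of CPS1, with 24 and 37 tags at the first site and 34 and 48 at the second. The chromosome 13 pair had 28 and 23 at the first site and 36 and 33 at the second. Of the pairs without any IMR90 peak, the chromosome 21 copy had 25 and 34 control tags at the first site and 53 and 45 at the second and had a CTCF siRNA replicate 2 peak of 17 tags at its second site. A second heavy chain pair (chr14:107147489-107151410) had 23 and 49 control tags at the first site and 61 and 75 at the second and a CTCF siRNA replicate 2 peak of 10 tags at its first site.

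Members lay near genes of 5 of the 10 gene lists examined. No cluster lay within 10000 bp of the 15 kallikrein genes, the HOXA, HOXB and HOXC genes or the 11 cohesin and CTCF genes, but few sites of any kind lay there, namely 3, 4, 7 and 5 near the kallikrein, HOXA, HOXB and HOXC genes and 22 near the cohesin and CTCF genes. Of the sites within that distance of a listed gene, 8 of 45 were members at the clustered protocadherins, 12 of 34 at the 19 imprinted genes, 4 of 17 at the 12 androgen-induced prostate genes, 4 of 17 at the replication-dependent histone genes and 2 of 7 at HOXD, beside 8.78% of all sites.

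At the protocadherin alpha genes, which encode neuronal adhesion proteins from alternative first exons, the 3 strongest of the 4 protocadherin pairs were examined singly, and each had 1 site in the UTR and 1 in the coding exon, of PCDHA3, PCDHA8 and PCDHA11. The strongest of the 6 sites was the exonic one of PCDHA8, with 38 and 57 control tags, and its partner had 15 and 23. At PCDHA3 the tags were 16 and 25 at the first site and 21 and 24 at the second, and at PCDHA11 26 and 20 at the first site and 30 and 23 at the second. A motif on the plus strand was found at the exonic site of all 3 and at none of the UTR sites. None of these 6 sites had a CTCF siRNA peak in LNCaP, and 1, the exonic PCDHA8 site, had a standard IMR90 control peak in 1 library (12 tags).

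Of the 5 clusters near imprinted genes, the 3 strongest were examined singly. Besides H19, the pair at PLAGL1, a zinc finger growth regulator, had 64 and 98 control tags at the first site and 17 and 44 at the second and no siRNA peak. The pair in introns of IGF2, the paternally expressed growth factor, had 41 and 62 at the first site and 66 and 74 at the second, and its second site kept 21 and 47 tags. Near SLC45A3, the prostate-enriched transporter prostein, there were 97 and 125 control tags at the first site and 73 and 112 at the second. The pair near FKBP5, a co-chaperone of steroid receptors, had 43 and 70 at the first site and 50 and 83 at the second. Its summits lay in introns of ENSG00000232909 and ARMC12, 469 and 645 bp from start sites of these genes. All 4 of these sites were bound in every IMR90 control library and none had a CTCF siRNA peak, although the first SLC45A3 site had control fold enrichments of 39.2 and 51.2, above the member medians of 12.4 and 14.5. The HOXD13 pair had 20 and 20 control tags at the first site and 58 and 36 at the second. The pair near H1-2, a linker histone gene, had 23 and 35 at the first site and 27 and 47 at the second, and the one near H2AC1 and H2BC1, core histone genes, 21 and 19 at the first site and 42 and 36 at the second, all without a CTCF siRNA peak.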

How the data were processed

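The deposited CTCF lists were made by the authors with MACS2 from reads aligned to hg19 with Bowtie, multiply aligned and duplicate reads being discarded. Low-cell libraries went through a pipeline the authors adapted from the kit vendor's guidelines, for which the labels list BWA. The deposited lists give for each peak a fold enrichment ratio over local background, and a −log10 p-value and −log10 q-value. The deposited histone regions were called with PeakRanger and carry a score column, used only to order regions when lists were shortened. Whole tags were worked back from fold enrichment and p-value in every standard CTCF list, but not in the low-cell control lists, and the deposited histone regions hold no counts. Read totals listed by the study were not used in any computation.

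Peaks overlapping by 1 bp were merged. Both strands were searched for the motif, allowing 2 mismatches, no farther than 100 bp from each summit, and genes came from GENCODE release 44 on GRCh37. Members, gene lists and tests were chosen with earlier results of these data known. Clusters named in the text were those with the most sites, and otherwise those whose weaker site was strongest, among all pairs, pairs kept at both or at 1 site, and pairs without IMR90 peaks. Shares have Wilson and differences Newcombe 95% intervals, and libraries were compared by exact permutation tests. Differences at matched strength weight isolated sites over 20 bins. Printed sequences are 30 bp rather than the 41 bp first planned. Scripts were tested on simulated data. Python 3.11.15, numpy 2.4.6, pandas 2.3.3, scipy 1.17.1 and pysam 0.24.0 were used. Replicate numbers came from the labels, which do not say that a number marks a shared culture. Alternatives covered spacing limits, peak thresholds, overlap, motif settings, weighting and leaving out each library in turn. Some genes of the cell line check are not reported here.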

Additional observations from a re-analysis of the deposited data

How the results depend on the processing

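Of 122 values recomputed under alternatives, 102 were counted as unchanged, by rules that differed between results. Differences between members and isolated sites had to keep their direction and whether their interval excluded 0. Shares of pairs had to stay inside the reported interval. The strength ratio had to stay within the SD of the per-library ratios. The number of members had to stay within 1.5 times, so 4083 without control CTCF replicate 2 counted as unchanged. Histone changes had to keep their sign only. The kept difference between members and isolated sites lost its distance from 0 with isolated sites weighted by control tags, an alternative chosen after seeing the data (1.14 points), and with all lists shortened to the shortest (11.6 points, with 56 members and 1781 isolated sites left). The motif difference did so at matched fold enrichment (0.47 points). The number of members was 1459 with a limit of 1000 bp, 6512 with 5000 bp and 7136 with a peak in either control library. The strength ratio was 1.38 by −log10 p, 1.29 by tags, 1.30 and 1.17 with isolated sites over 100000 and 20000 bp from a neighbour, and 1.14 with a peak in either library. With a limit of 1000 bp, 60.4% of the pairs with a motif at both sites had them on the same strand. Among pairs with at least 1 kept site that differed by less than 1.5 times in strength, 14.3% kept both. The H3K27ac change after CTCF siRNA turned to −0.29 points with shortened lists, and the H3K4me3 change to −0.97 points without CTCF siRNA H3K4me3 replicate 2. The causes were not tested.

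Leaving out 1 library at a time gave 4083 to 5814 members (the higher number without control CTCF replicate 1). Strength ratios were 1.13 to 1.20. Kept differences were 3.18 to 10.4 points, IMR90 differences 7.15 to 11.5 points and motif differences 1.12 to 1.37 points. H3K4me3 differences were 9.11 to 15.5 points and H3K27ac differences 9.08 to 13.6 points. Of the pairs with at least 1 kept site, 7.38% to 19.4% kept both. Of the pairs with a motif at both sites, 55.6% to 57.5% had them on the same strand. Changes after CTCF siRNA were −0.97 to 5.65 points for H3K4me3 and 0.05 to 3.67 points for H3K27ac. With the replicate block, that is with same-numbered libraries paired, the changes were 2.34 points for H3K4me3 (exact sign-flip permutation p = 0.50) and 1.86 points for H3K27ac (p = 1), and no call changed. At weak sites the CTCF siRNA lists hold few tags, so a peak may have been missed there.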
